A study of Mus musculus with 6 samples.

Results

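The genes of cholesterol and fatty acid synthesis were examined in C0321 mammary tumors of control mice and of mice treated with sulindac sulfide (SS), a γ-secretase modulator related to the anti-inflammatory drug sulindac. They are 36 genes named by symbol: 17 enzymes of cholesterol synthesis, 5 genes that sense sterols and set the activity of the pathway, 10 enzymes of fatty acid synthesis, and 4 genes of cholesterol export and its control by liver X receptors (LXR). The deposited table held 35 of them among 13730 genes. The expression of Ebp was not analysed here, and Ebp enters only the promoter counts. Both groups were female FVB mice, injected at 6 to 10 weeks of age with 1000000 C0321 cells in Matrigel in the mammary fat pad, and each group had 3 tumors. C0321 is a triple-negative breast cancer (TNBC) line, 1 transplantable clone from a mouse with conditional knockout of Lunatic Fringe (Lfng) on the FVB background, so control and SS tumors alike carry that knockout in the injected cells, while the host keeps an intact immune system and its own Lfng. Treatment began at a palpable mass. The SS group received 60 mg/kg by mouth daily for 14 days. The labels name the treatment as a sulfate and the series text names saline for the controls, whereas the paper's text has sulindac sulfide and vehicle.

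Cells make cholesterol from acetyl-CoA through mevalonate, squalene and lanosterol, and make fatty acids from the same acetyl-CoA. The transcription factors encoded by Srebf1 and Srebf2 are held in the endoplasmic reticulum with Scap by the Insig proteins while sterols are plentiful, and switch on both sets of enzymes when sterols run low. LXR acts in the opposite setting, since oxidized sterols bind it and it raises the exporters of cholesterol. In the mammary fat pad, adipocytes are a strong source of fatty acid synthesis transcripts.

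A few promoters are shown because they belong to the member with the smallest p-value (Hmgcs1), to a member with separate group values at very low counts (Idi1), and to the central enzyme of fatty acid synthesis (Fasn), which had nearly equal group means. Each runs from 250 bases before to 50 bases after the RefSeq start site on GRCm38.p6, along the gene's strand. Capitals mark the sterol regulatory element letters TCACNCCAC and the CCAAT box on either strand, which reads ATTGG on the other strand; in Fasn a CCAAT and an ATTGG overlap.
Hmgcs1, chr13:119690101-119690400, plus strand: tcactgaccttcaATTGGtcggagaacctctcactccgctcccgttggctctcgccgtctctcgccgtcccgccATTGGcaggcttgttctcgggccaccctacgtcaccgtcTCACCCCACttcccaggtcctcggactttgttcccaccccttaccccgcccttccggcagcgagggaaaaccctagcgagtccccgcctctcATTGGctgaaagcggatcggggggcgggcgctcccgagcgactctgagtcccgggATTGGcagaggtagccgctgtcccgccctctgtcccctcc
Idi1, chr13:8885356-8885655, plus strand: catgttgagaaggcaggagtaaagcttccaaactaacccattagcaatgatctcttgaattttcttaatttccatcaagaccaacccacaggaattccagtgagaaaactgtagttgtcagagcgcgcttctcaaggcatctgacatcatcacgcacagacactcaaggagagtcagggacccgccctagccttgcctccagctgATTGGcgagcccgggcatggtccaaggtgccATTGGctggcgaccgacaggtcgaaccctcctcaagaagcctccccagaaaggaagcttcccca
Fasn, chr11:120824498-120824797, minus strand: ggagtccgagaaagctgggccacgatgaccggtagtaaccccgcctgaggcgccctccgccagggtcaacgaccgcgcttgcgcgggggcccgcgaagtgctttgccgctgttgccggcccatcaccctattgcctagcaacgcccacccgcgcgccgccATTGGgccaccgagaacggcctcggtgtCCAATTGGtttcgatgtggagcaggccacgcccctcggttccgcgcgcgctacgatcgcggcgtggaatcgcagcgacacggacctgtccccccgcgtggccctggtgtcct
Hmgcs1 held TCACCCCAC with its first base at position -137 from the start site, and 4 CCAAT boxes. Idi1 held 2 CCAAT boxes and Fasn 3, and neither held the sterol regulatory element letters in this window. Promoters of 29 of the 36 genes were found, 38 promoters in all, and each motif was searched on both strands. TCACNCCAC occurred in 1 of the 38 promoters (2.63%), against 1.24% of all 32851 promoters. CCAAT occurred in 23 of the 38 (60.5%), against 37.4% of all promoters, and the E box CACGTG in 8 (21.1%), against 7.15%. By gene, 22 and 7 of the 29 held them, and the E box in overlapping Scap windows is the same site. Promoters of the same gene are not independent. These matches describe letters only, and binding was not measured.

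Libraries held between 8468914 and 24441522 estimated counts per tumor, the smallest in the SS group, so that 3 counts correspond to between 0.123 and 0.354 counts per 1000000 counts (CPM). Lfng was at between 4.65 and 6.40 CPM in the 6 tumors. Vim, a mesenchymal marker, was at between 5875 and 8620 CPM, the luminal keratin Krt8 at between 417 and 544 CPM, and Epcam at no more than 2.98 CPM. The tumors were not uniform in fat: the summed CPM of 14 adipocyte genes was 628, 70.5 and 30.7 in the controls, numbered 1 to 3, against 219, 366 and 107 under SS.

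No lipid synthesis gene passed the test between control and SS-treated tumors after adjustment, while 9 of 12 cholesterol synthesis enzymes had positive and 7 of 10 fatty acid enzymes had negative log2 fold changes. With 1 tumor left out the first count was between 8 and 10, and that of negative fatty acid enzymes was between 4, without control tumor 1, and 9, without control tumor 3 or SS tumor 1. By edgeR (quasi-likelihood, Benjamini-Hochberg adjustment over 10902 genes), 0 of the 31 members tested had an adjusted p-value under 0.05, as did 0 of all genes (0.0%), and limma-voom called 0 of the 31 as well. DESeq2 gave an adjusted p for only 20 of the 31, leaving out 9 of the 12 cholesterol synthesis enzymes, Elovl5 and Nr1h3, and called 0 of these 20. It called 35 of all 10902 genes (0.321%), or 0.58% of the 6039 genes with an adjusted p. At an unadjusted p under 0.05 there was 1 member, Hmgcs1, against 6.36% of all genes tested, or 3.19% higher and 3.16% lower. Positive log2 fold changes, higher in SS-treated tumors, were held by 19 of the 31 members and negative ones by 12, against 49.8% positive among all genes. The median log2 fold change of the members was 0.11 and that of all genes 0.00. These values leaned on single tumors. The members' median was 0.30 without control tumor 1, 0.039 and 0.026 without control tumors 2 and 3, and 0.20 without SS tumor 3. These medians are over 32 members, since a further cholesterol enzyme passed the filter on low counts in these fits. The median was -0.039 over 31 members without SS tumor 1. Of the same 31 members, 22 were positive without control tumor 1 and 15 without SS tumor 1. With 1 tumor left out the log2 fold change turned sign for 13 of the 31 members and moved by more than 1.5 times for 16 others, leaving Hmgcs1 and Elovl5. The groups did not overlap in CPM for 2 members tested, Fdft1 above and Elovl5 below the controls, against 12.9% of all genes, 6.51% above and 6.4% below. Standard errors ranged from 0.12 for Scap to 1.09 for Scd1 on the log2 scale, and adjusted p-values from 0.771 to 0.996. An exact permutation test of 3 against 3 tumors cannot go below p = 0.1. In the fit of all 6 tumors, Idi1, Tm7sf2, Hsd17b7 and Sc5d were under the filter on low counts and were not tested.

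**Figure D1:**
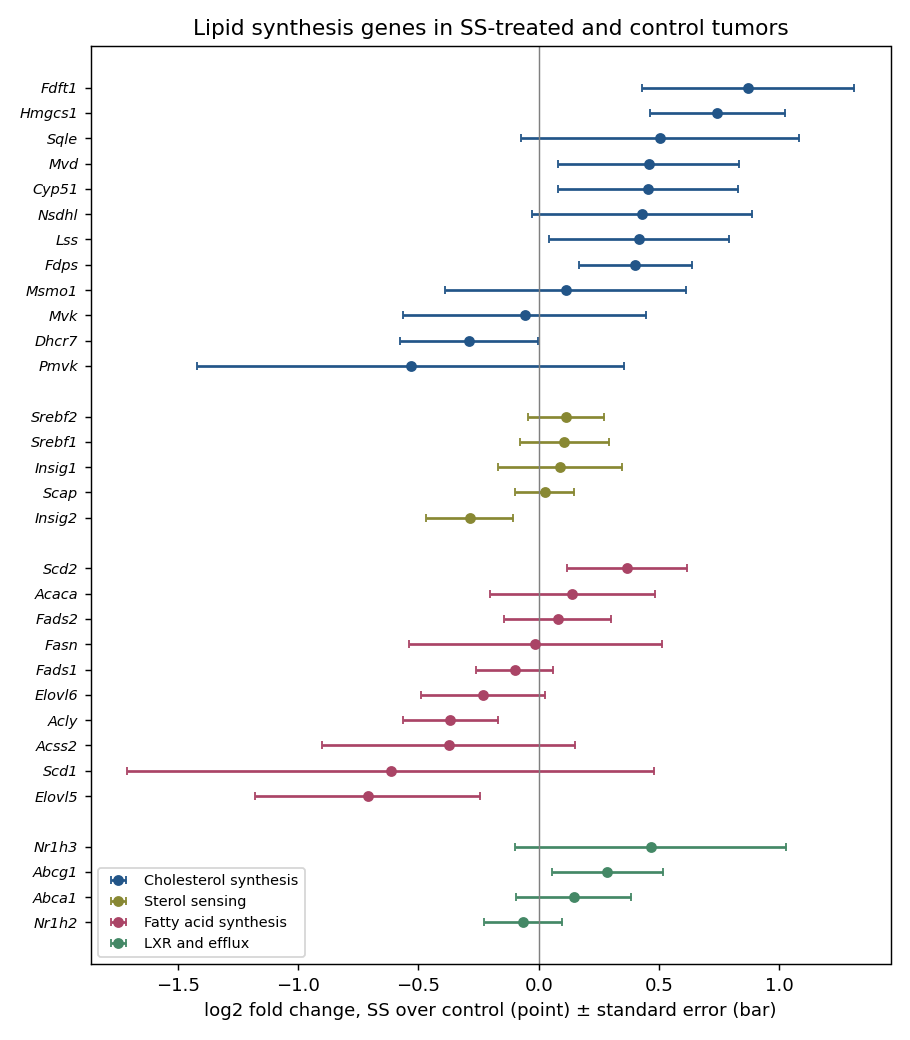
Log2 fold change of SS-treated over control tumors (x axis; points, with bars for 1 standard error) of the 31 members tested, grouped by role. Cholesterol synthesis enzymes are mostly to the right of 0, with Fdft1 at 0.87 and Hmgcs1 at 0.74, fatty acid enzymes are mostly to the left, and Scd1 has the widest bar.

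The mean log2 CPM of the 12 cholesterol synthesis enzymes tested was between 1.46 and 1.84 in the controls, against 1.79 to 2.25 under SS, so the groups overlapped. Their log2 fold changes had a median of 0.42, which was 0.23 without SS tumor 1, and a range from -0.53 to 0.87. Hmgcs1 (chr13, 119690351 to 119708261, mm10), the synthase that forms HMG-CoA before the rate-limiting step, was at 50.9, 37.3 and 24.9 CPM in control tumors 1, 2 and 3 and at 79.0, 62.2 and 47.3 CPM in SS tumors 1, 2 and 3. The means were 37.7 ± 13.0 and 62.8 ± 15.8 CPM (SD, n = 3 each). The groups overlapped, since SS tumor 3 was below control tumor 1. Its log2 fold change was 0.74 (SE 0.28), with an unadjusted p of 0.0307 and, by the Benjamini-Hochberg method in edgeR, an adjusted p of 0.771. The sign was positive under every alternative run, with log2 values between 0.52 and 1.01, and its unadjusted p in edgeR was above 0.05 without control tumor 2 (0.0754), control tumor 3 (0.0776), SS tumor 1 (0.117) or SS tumor 2 (0.0619).

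The next steps phosphorylate and decarboxylate mevalonate. Mvk and Pmvk, both kinases, had log2 fold changes of -0.06 (SE 0.50) and -0.53 (SE 0.89). Pmvk was at 1 count in SS tumor 2 and at 25 counts in SS tumor 1, and the highest tumor was 15.9 times the lowest in CPM. Its log2 fold change was -1.89 without SS tumor 1 and -0.067 without SS tumor 2. Mvd, the decarboxylase that yields isopentenyl pyrophosphate, was at 5.53, 4.03 and 2.22 CPM in control tumors and at 5.30, 5.37 and 5.41 CPM in SS tumors. The SS tumors were nearly equal and lay within the range of the controls, and the log2 fold change was 0.46 (SE 0.38).

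Idi1, the isomerase of isopentenyl pyrophosphate, was at 0.474, 0.344 and 0.328 CPM in control tumors 1, 2 and 3 and at 1.89, 0.835 and 0.676 CPM in SS tumors 1, 2 and 3. Every SS tumor was above every control tumor. The counts behind these values were 6, 7 and 8 in controls and 26, 7 and 8 in SS tumors, so tumors 2 and 3 of both groups had the same counts from libraries of unequal size. Without a filter on low counts its log2 fold change was 1.56 (SE 0.73), with an unadjusted p of 0.0643 and, by the Benjamini-Hochberg method in edgeR, an adjusted p of 0.828. When SS tumor 3 was left out Idi1 passed the filter, with an unadjusted p under 0.05 and an adjusted p above 0.05 in edgeR.

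Fdps and Fdft1 join isoprene units into farnesyl pyrophosphate and then squalene. Fdps was at 12.7, 12.9 and 9.07 CPM in control tumors and at 19.1, 12.5 and 14.1 CPM in SS tumors, with a log2 fold change of 0.40 (SE 0.24) and overlapping groups. Fdft1 (chr14, 63145151 to 63179579), squalene synthase, was at 1.98, 1.48 and 1.40 CPM in control tumors 1, 2 and 3 and at 2.69, 4.17 and 2.03 CPM in SS tumors 1, 2 and 3. SS tumor 3 was above control tumor 1 by a small margin, so the groups did not overlap. The means were 1.62 ± 0.315 and 2.96 ± 1.10 CPM (SD, n = 3 each), the log2 fold change was 0.87 (SE 0.44), the largest of the members tested, and the adjusted p was 0.792 in edgeR with Benjamini-Hochberg adjustment. Its counts were between 24 and 37 per tumor.

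Sqle, the epoxidase of squalene and a rate-limiting enzyme, was at 0.711, 1.18 and 0.903 CPM in control tumors and at 1.74, 1.67 and 0.592 CPM in SS tumors. SS tumors 1 and 2 were above all controls and SS tumor 3 was below them all, on 7 to 24 counts per tumor, with a log2 fold change of 0.50 (SE 0.58). Lss, which closes squalene epoxide to lanosterol, and Cyp51, which removes the lanosterol methyl group, had log2 fold changes of 0.42 (SE 0.37) and 0.46 (SE 0.38). Msmo1 and Nsdhl, of the later demethylation, were at 0.11 (SE 0.50) and 0.43 (SE 0.46). Dhcr7, which acts at the last step, was at 13.6, 19.7 and 16.7 CPM in control tumors and at 16.3, 8.23 and 16.1 CPM in SS tumors, and its log2 fold change was -0.29 (SE 0.29). SS tumor 2 was the low one.

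The untested Tm7sf2 and Hsd17b7, both reductases of late sterols, and Sc5d had between 0 and 11 counts in any tumor. Sc5d, the desaturase of the last steps, had 0, 4 and 11 counts in the controls, against 1, 0 and 2 under SS. Without a filter on low counts their log2 fold changes were 0.57 (SE 0.92) for Tm7sf2, 0.34 (SE 0.99) for Hsd17b7 and -1.34 (SE 1.53) for Sc5d, with overlapping groups.

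**Figure D2:**
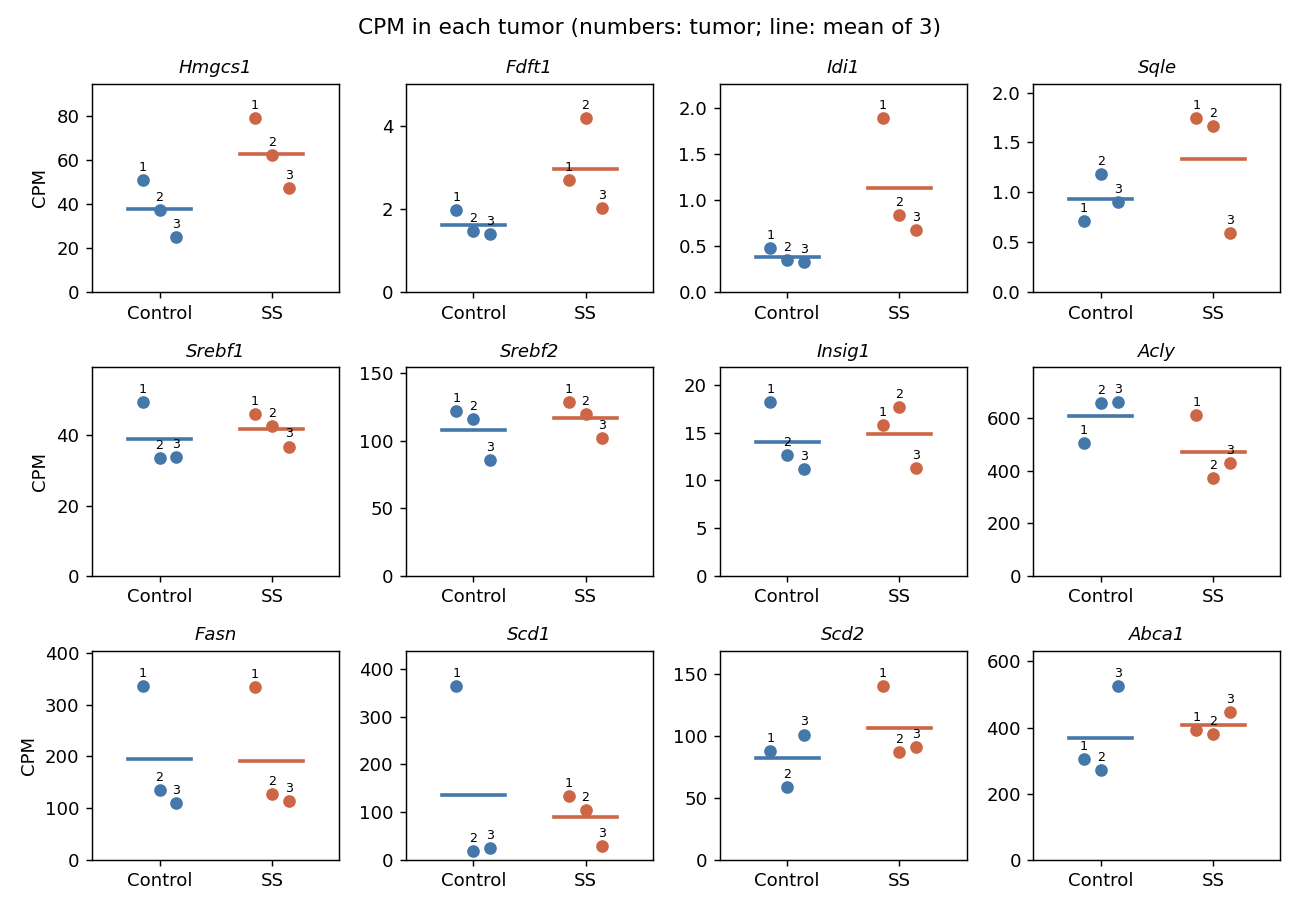
CPM of 12 members in each tumor (y axis from 0; points numbered by tumor, lines for the mean of 3) in control and SS groups. Idi1 and Fdft1 do not overlap between groups, Hmgcs1 overlaps by 1 SS tumor, and Fasn and Scd1 spread widely within each group.

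Of the 5 sterol sensors, 4 had positive and 1 a negative log2 fold change, with a median of 0.09. The median was between -0.026, without control tumor 3, and 0.21, without control tumor 1, when 1 tumor was left out, and -0.014 with the mean level of adipocyte genes as a covariate, with 2 positive and 3 negative values in the first and last of these fits. Srebf2, which mainly drives cholesterol genes, was at 122, 116 and 85.9 CPM in control tumors and at 128, 120 and 102 CPM in SS tumors, with a log2 fold change of 0.11 (SE 0.16). Srebf1, which mainly drives fatty acid genes, was at 49.5, 33.5 and 33.9 CPM in control tumors and at 46.2, 42.6 and 36.8 CPM in SS tumors (0.11, SE 0.19). The groups overlapped in both genes. Insig1, itself a target of these factors, was at 18.2, 12.7 and 11.2 CPM in control tumors and at 15.8, 17.7 and 11.2 CPM in SS tumors, with a log2 fold change of 0.09 (SE 0.26). Insig2 was at -0.29 (SE 0.18), the only negative value among the 5 sensors. Scap, the escort of the factors to the Golgi, was between 64.3 and 80.5 CPM in the 6 tumors and had the smallest standard error of the members, with a log2 fold change of 0.03 (SE 0.12). Its tumors differed least among the members, and its standard deviation within groups on the log2 scale was above that of only 15.3% of the genes tested.

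In fatty acid synthesis, 3 of the 10 enzymes had positive and 7 had negative log2 fold changes, with a median of -0.17 and a range from -0.71 to 0.37. The median was 0.18 without control tumor 1, with 6 positive and 4 negative values. It was -0.30 without control tumor 3 and -0.50 without SS tumor 1, each with 9 negative values, and -0.085 and -0.086 without SS tumors 2 and 3. With the mean level of adipocyte genes as a covariate the median was -0.26, with 1 positive and 9 negative values. With limma-voom it was -0.07, with 4 positive and 6 negative values. Acly, which cleaves citrate into cytosolic acetyl-CoA and so feeds both pathways, was at 505, 655 and 660 CPM in control tumors 1, 2 and 3 and at 611, 373 and 428 CPM in SS tumors 1, 2 and 3. The means were 607 ± 88.3 and 470 ± 125 CPM (SD, n = 3 each), and SS tumor 1 lay within the controls. The log2 fold change was -0.37 (SE 0.20) and the adjusted p 0.798 in edgeR with Benjamini-Hochberg adjustment. Acss2, which makes acetyl-CoA from acetate, was at 30.4, 12.1 and 13.3 CPM in control tumors and at 25.4, 9.78 and 7.44 CPM in SS tumors (-0.37, SE 0.53). Tumor 1 was the high one in both groups.

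Acaca, the carboxylase that forms malonyl-CoA, was at 124, 66.5 and 68.1 CPM in control tumors and at 137, 88.1 and 59.8 CPM in SS tumors, with a log2 fold change of 0.14 (SE 0.34). Fasn, the synthase that builds palmitate, was at 337, 136 and 110 CPM in control tumors and at 335, 127 and 114 CPM in SS tumors. Its means of 194 ± 124 and 192 ± 124 CPM (SD, n = 3 each) differed by less than their spread, with a log2 fold change of -0.01 (SE 0.53). One tumor in each group was about equally high and the others were about equally low.

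Scd1 (chr19, 44394450 to 44407710), the desaturase that turns stearate into oleate, was at 364, 18.4 and 25.4 CPM in control tumors 1, 2 and 3 and at 134, 104 and 27.6 CPM in SS tumors 1, 2 and 3. The highest tumor was 19.8 times the lowest, and its standard deviation within groups of 1.88 on the log2 scale was above that of 97.7% of the genes tested. The log2 fold change of -0.62 (SE 1.09) became 2.01 without control tumor 1. Scd2, the related desaturase, was at 87.3, 58.5 and 101 CPM in control tumors and at 140, 86.7 and 91.2 CPM in SS tumors (0.37, SE 0.25). The estimated counts of Scd1 and Scd2 held decimals although each has 1 transcript in the table, so reads shared between genes may have been split among them, and their separation is uncertain.

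Elovl5 (chr9, 77917365 to 77984520), an elongase of polyunsaturated fatty acids, was at 1.42, 1.43 and 1.64 CPM in control tumors and at 0.726, 1.19 and 0.845 CPM in SS tumors. Every SS tumor was below every control, with means of 1.50 ± 0.126 and 0.921 ± 0.242 CPM (SD, n = 3 each). Each SS tumor held 10 counts and the controls held 18, 29 and 40. The log2 fold change was -0.71 (SE 0.47) and the adjusted p 0.855 in edgeR with Benjamini-Hochberg adjustment. Elovl6, which extends palmitate, was at -0.23 (SE 0.26), and the desaturases Fads1 and Fads2 were at -0.10 (SE 0.16) and 0.08 (SE 0.22).

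Of the 4 genes of export and LXR, 3 had positive and 1 a negative log2 fold change. Their median was 0.22, which was 0.012 without control tumor 2 and 0.35 with limma-voom. Abca1, which loads cholesterol onto lipid-poor apolipoprotein, was at 304, 272 and 526 CPM in control tumors 1, 2 and 3 and at 392, 379 and 447 CPM in SS tumors 1, 2 and 3. The SS tumors lay within the range of the controls, and the log2 fold change was 0.15 (SE 0.24). It was 0.27 with limma-voom or with the adipocyte covariate, and -0.031 without control tumor 2. Abcg1, which exports cholesterol to mature lipoprotein particles, was at 84.7, 52.9 and 105 CPM in control tumors and at 87.3, 101 and 107 CPM in SS tumors (0.29, SE 0.23). All SS tumors were above control tumor 1, while control tumor 3 was among them. Nr1h3, which encodes LXRα, was at 5.85, 1.72 and 1.48 CPM in control tumors and at 3.77, 3.82 and 4.73 CPM in SS tumors. Control tumor 1 was above every SS tumor and the other controls were below them all, with a log2 fold change of 0.47 (SE 0.56). This was 1.36 without control tumor 1, with an unadjusted p of 0.0124 in edgeR, 0.18 and 0.14 without control tumors 2 and 3, and 0.94 with limma-voom. Nr1h2, which encodes LXRβ, was at -0.07 (SE 0.16). Macrophages carry both exporters as well. The summed CPM of 12 macrophage genes, with 0 of them at 0 in any tumor, was between 861 and 1087 in controls and between 898 and 1139 in SS tumors, and the part of these cells in the exporter values was not tested.

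Adipocyte genes set 3 tumors apart. The adipocyte score, the mean log2 CPM of the 10 adipocyte genes tested, was 4.42, 0.33 and -0.44 in the controls, numbered 1 to 3, against 3.39, 3.69 and 0.51 under SS. Of the 14 adipocyte genes in the table, 0, 5 and 8 were at 0 in the controls, against 1, 1 and 6 under SS. Plin1, which coats the adipocyte lipid droplet, was at 37.8, 0.0983 and 0 CPM in control tumors and at 8.06, 14.7 and 0 CPM in SS tumors. Control tumor 1 and SS tumors 1 and 2 were thus high, and control tumors 2 and 3 and SS tumor 3 were low. In a bulk tumor, fewer cells of a type and less RNA per cell cannot be told apart.

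The same 3 tumors were the highest in Scd1, with 364, 134 and 104 CPM against 18.4 to 27.6 CPM in the others. They were also the highest in Acaca, Srebf1, Srebf2, Insig1, Hmgcs1 and Lss, which makes 7 of the 31 members tested (22.6%), against 7.4% of all genes tested. Fasn was high in control tumor 1 and SS tumor 1 only, although SS tumor 2 had an adipocyte score of 3.69. Acly did not follow the score in either direction. Control tumors 2 and 3, with low scores, held its highest values. SS tumor 3, also with a low score, was at 428 CPM, below control tumor 1 at 505 CPM and SS tumor 1 at 611 CPM. With the adipocyte score as a covariate the log2 fold change of Hmgcs1 was 0.57, with an unadjusted p of 0.0149 and, by the Benjamini-Hochberg method in edgeR, an adjusted p of 0.784. The share of all genes past an unadjusted p of 0.05 in that fit was 6.26%, and the median log2 fold change of the tested members was 0.00. The epithelial score was high in the same 3 tumors, at 5.43, 4.59 and 5.38 against 2.82 to 3.28 in the others, a pattern held by Krt19, Krt5 and Krt14. The most abundant epithelial gene, Krt8, and Krt18 were instead highest in control tumor 2, and Epcam and Cdh1 were lower in SS tumor 1, at 0.218 and 4.79 CPM, than in SS tumor 3, at 1.52 and 4.90 CPM. The part of adipocytes in the values of the lipid synthesis genes was not tested beyond the adipocyte covariate. The part of epithelial cells was not tested.

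**Figure D3:**
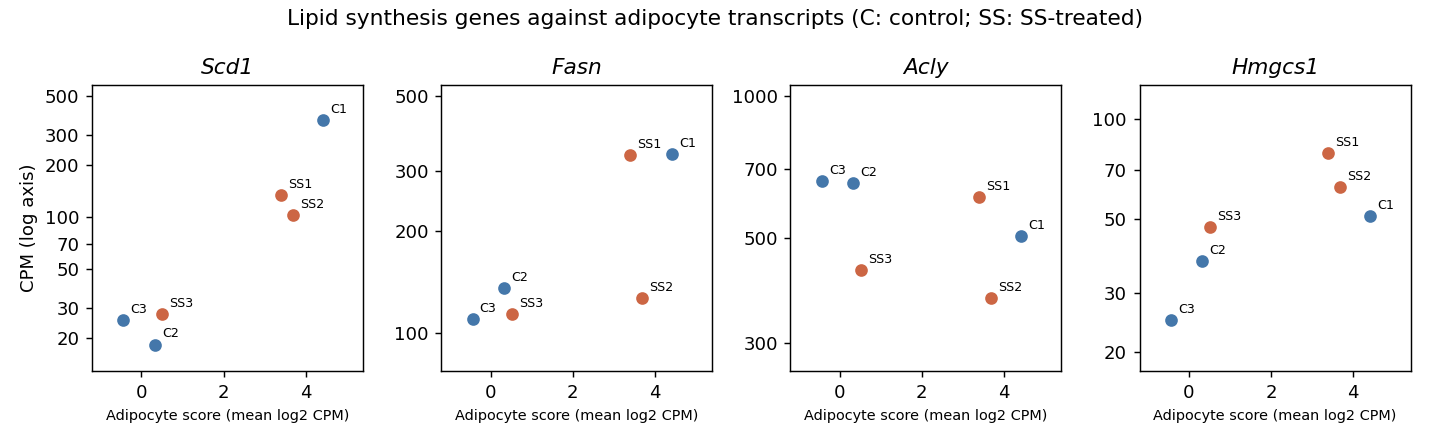
CPM (y axis, log scale) of Scd1, Fasn, Acly and Hmgcs1 against the adipocyte score of each tumor (x axis, mean log2 CPM), with a point per tumor. Scd1 and Hmgcs1 are highest in the 3 tumors with scores from 3.39 to 4.42, and Fasn in only 2 of them. Acly is highest in the 2 tumors with the lowest scores, but SS tumor 3, with a score of 0.51, is below control tumor 1 and SS tumor 1.

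Other genes of the same pathways were examined as fixed lists. Of their 41 genes tested, 2 had an unadjusted p under 0.05 in edgeR (4.88%) and 5 did not overlap between groups (12.2%), neither share above that of all genes, 6.36% and 12.9%. Of 10 tested genes of sterol handling, such as the SREBP proteases Mbtps1 and Mbtps2 and the ligases that degrade HMG-CoA reductase, 2 had positive and 8 negative log2 fold changes, with a median of -0.10. Ggps1 of this list, named after its values were seen, was under the filter on low counts and was not tested. It had 5, 10 and 14 counts in controls against 1, 0 and 0 under SS, without overlap in CPM. Rnf145, a sterol-responsive ubiquitin ligase, was at 34.2, 43.4 and 40.5 CPM in control tumors and at 50.1, 47.9 and 52.5 CPM in SS tumors, without overlap (log2 fold change 0.35, SE 0.13, unadjusted p = 0.0272 in edgeR). Of 23 tested genes of fatty acid activation, elongation and esterification, 12 were positive and 11 negative, with a median of 0.02. Hacd3, a dehydratase of the elongation cycle, was at 14.5, 16.2 and 17.2 CPM in control tumors and at 13.5, 9.90 and 8.11 CPM in SS tumors, also without overlap (-0.60, SE 0.22, unadjusted p = 0.0287 in edgeR). Hacd2, of the same family and named after its values were seen, went the other way, at 36.8, 41.9 and 29.1 CPM in control tumors and at 43.8, 42.7 and 48.9 CPM in SS tumors, without overlap (0.33, SE 0.16, unadjusted p = 0.0730 in edgeR). Rnf145 and Hacd3 had an adjusted p of 0.771 by the Benjamini-Hochberg method. Of 8 further LXR targets and partners, 5 were positive and 3 negative with a median of 0.01, and 0 had an unadjusted p under 0.05 in edgeR.

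Among the cell type lists, 8 of 10 adipocyte genes tested, 9 of 12 macrophage genes, 3 of 7 epithelial genes, 1 of 6 mesenchymal genes and 9 of 12 proliferation genes had positive log2 fold changes, in all 30 of 47 (63.8%), against 49.8% of all genes. An unadjusted p under 0.05 in edgeR was reached by 2 of the 47 (4.26%), below the 6.36% of all genes. This threshold was passed by Cd14, a monocyte receptor, at -0.59 (SE 0.21, unadjusted p = 0.0242 in edgeR) and by the keratin Krt18 at -0.50 (SE 0.12, unadjusted p = 0.00387 in edgeR). Both were lower in SS tumors, while the summed levels of their lists overlapped between the groups.

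Between genes, levels were compared per transcript length, as CPM divided by the length in kilobases (RPKM). Acly was the most abundant member at a median of 127 RPKM over the 6 tumors, between 84.5 and 150 RPKM, above Abca1 at 37.6 RPKM, and neither overlapped the next gene in the order. Below them, from Srebf2 at 23.2 RPKM to Idi1 at 0.190 RPKM, each gene overlapped its neighbour. Medians were 16.7 RPKM for Insig2, 16.3 RPKM for Scap and 16.1 RPKM for Abcg1, against 9.24 RPKM for Srebf1 and 5.27 RPKM for Insig1. Cholesterol synthesis was uneven: Hmgcs1 at 14.8 RPKM and Fdps at 10.4 RPKM were followed by Dhcr7 at 5.77 RPKM and Mvd at 3.04 RPKM, whereas Sqle was at 0.378 RPKM and Idi1 at 0.190 RPKM. Hsd17b7 and Sc5d were the lowest, at 0.0699 and 0.0252 RPKM, without overlap with Idi1. Low values were not particular to these enzymes, since B2m, a light chain carried by nearly all cells, was at only 1.66 to 3.85 CPM in these libraries. Absolute levels in the table therefore carry a limit whose source was not tested.

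**Figure D4:**
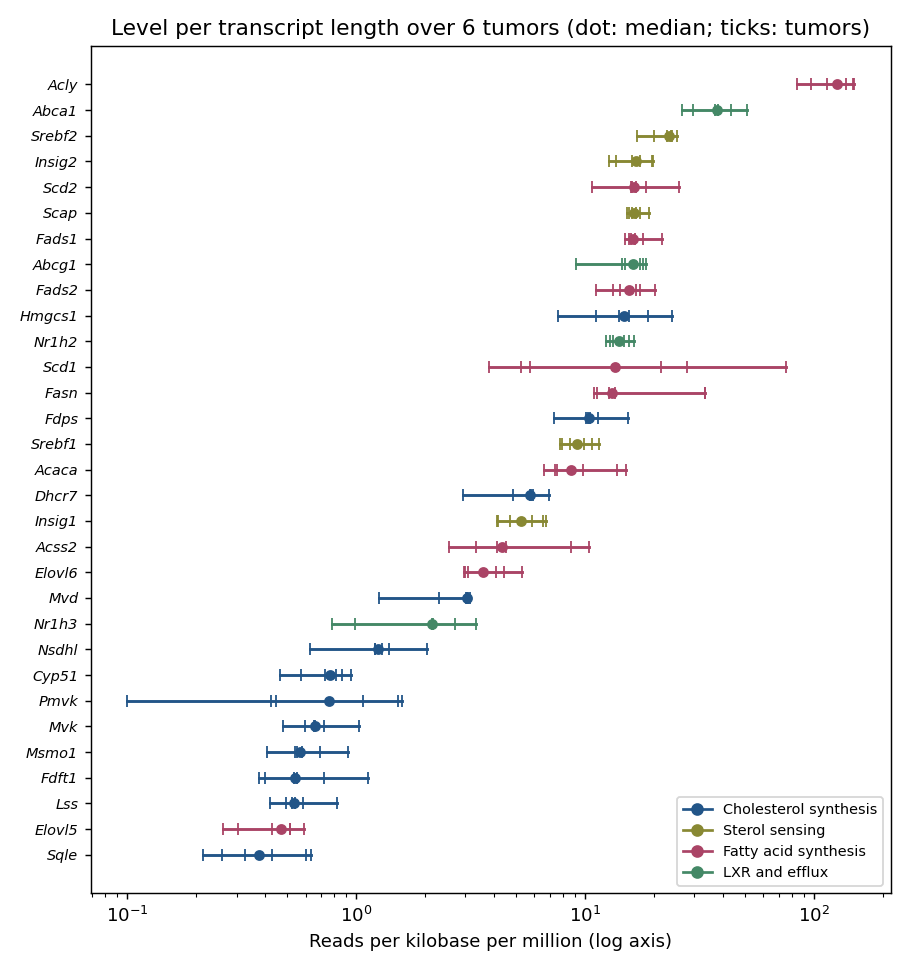
Level per transcript length of the 31 members tested (x axis, RPKM, log scale), with a dot for the median and ticks for the 6 tumors. Acly lies above all others, Scd1 and Pmvk span the widest ranges, and most cholesterol synthesis enzymes lie in the lower part.

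Estimated counts were divided among transcripts for 8 members. The share of the Hmgcs1 transcript NM_001291439 was 82.3%, 52.3% and 93.6% in the controls, against 76.9%, 65.8% and 44.9% under SS, with overlap. For Srebf1 the share of NM_001313979 was 18.1%, 8.78% and 4.95% in the controls, against 53.1%, 0.53% and 12.3% under SS, so that SS tumors 1 and 2 held the extremes. For Nr1h2 the share of NM_001285517 was 77.4% in SS tumor 2 and between 23.3% and 29.2% in the others. Some shares repeated to the last digit. Mvk was split into 26.3% and 73.7% in all 6 tumors, and Nr1h3 was split alike in control tumors 1 and 2 and SS tumors 1 and 3, with 86.6% in 1 transcript that was at 0% in control tumor 3 and 30.0% in SS tumor 2. How the counting divided reads among transcripts was not tested, so groups were compared by gene totals only.

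**Figure D5:**
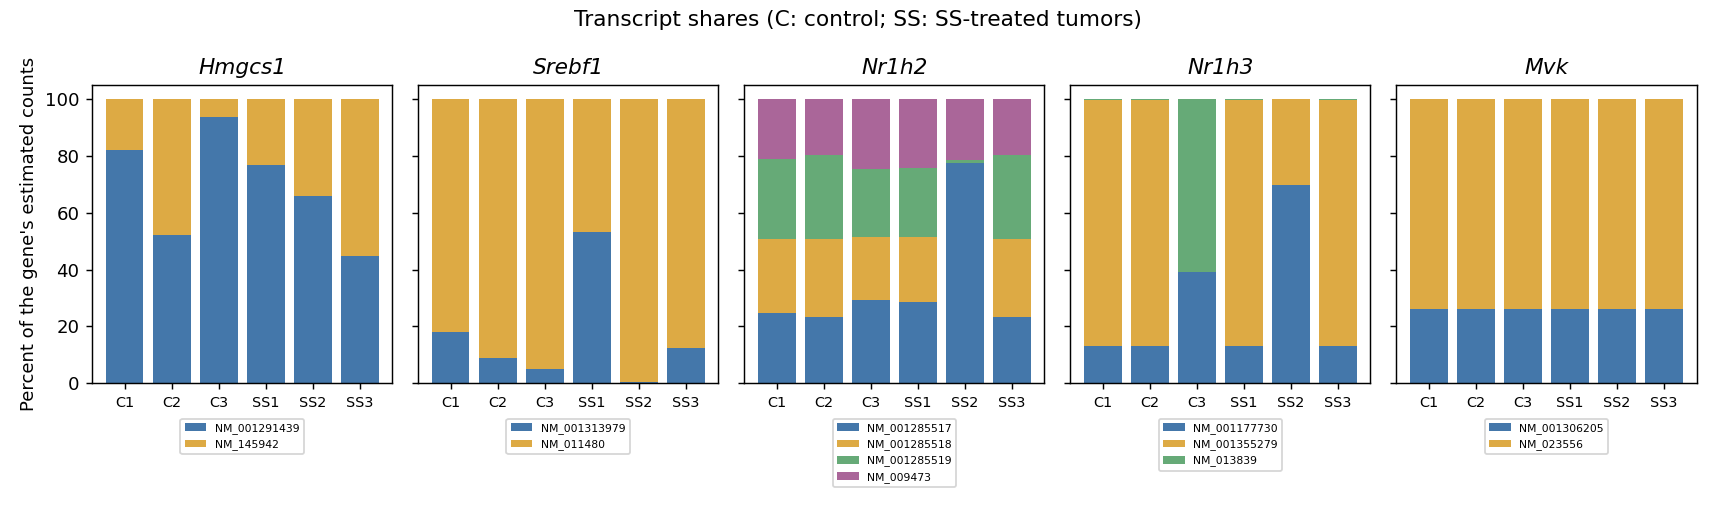
Percent of each gene's estimated counts given to each RefSeq transcript (y axis) in the 6 tumors, for Hmgcs1, Srebf1, Nr1h2, Nr1h3 and Mvk. Mvk has the same split in every tumor, Nr1h2 departs in SS tumor 2, and Srebf1 varies from 0.53% to 53.1% within the SS group.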

How the data were processed

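RNA of 6 tumors, 3 per group, was sequenced from stranded, polyadenylated libraries with paired reads of 75 nucleotides. For every RefSeq transcript the authors deposited an estimated count that had not been normalized, after dropping rows of very low expression, and each of the 20648 transcripts held at least 10 counts over the 6 tumors. The submitters' processing notes name CASAVA 1.8.1, Bowtie2 2.2.5, STAR 2.5.3a and mm10. The counting tool and its use of strand are not given in the sources used here. The authors' route was quantile normalization and a t statistic. Here transcripts were summed by symbol, 21 symbols written as dates were restored, and sums were rounded. Genes passing edgeR's filter (10902) were scaled by TMM and compared by its quasi-likelihood test with Benjamini-Hochberg adjustment over all of them (R 4.3.3, edgeR 4.0.16), a count test used in place of the authors' route because the values are estimated counts. CPM used library size and TMM factors, scores a prior count of 2, and RPKM transcript lengths of GENCODE. The code was tested on simulated data. Alternatives were other scalings, DESeq2 1.42.0, limma 3.58.1 (voom), the quantile route, other filters, leaving out each tumor, a replicate block, thinning and an adipocyte covariate.

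The members and lists were chosen with earlier results of these data known. Values per tumor were given for members with an unadjusted p under 0.05, for members whose groups did not overlap, and for 13 genes named by the rule; Pmvk, Mvd, Fdps, Dhcr7, Acaca and Acss2 were added after their values were seen. The labels do not say more of the mice than their treatment, so p-values measure the spread between these tumors. Counting error is only part of that spread.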

Additional observations from a re-analysis of the deposited data

How the results depend on the processing

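Under 16 alternatives, 6 leaving out 1 tumor, 0 members passed an adjusted p of 0.05, although DESeq2 gave none for 11 of the 31. Of the 31, 18 kept 1 sign wherever tested, among them 10 of 12 cholesterol synthesis enzymes, of which Pmvk and Dhcr7 were negative. How many of all genes kept 1 sign was not counted. Mvk, Pmvk, Msmo1 and Sqle were not tested with at least 10 counts in every tumor, nor Mvk with thinned libraries. DESeq2 called 35 of all genes, and no other alternative called any. The count of members at an unadjusted p under 0.05 was 0 with quantile normalization and a t statistic, 2 with at least 10 counts in every tumor (Fdft1 and Hmgcs1), and between 0 and 4 when 1 tumor was left out. It was 4 without control tumor 1 (Hmgcs1, Acly, Nr1h3 and Scd1), 3 without SS tumor 3, 2 without control tumor 3 (Abca1 and Abcg1) or SS tumor 1 (Acly and Acss2), and 0 without control tumor 2 or SS tumor 2. In the same fits 7.81% of all genes did so without control tumor 1, between 4.58% and 5.9% without another tumor, 7.21% with at least 10 counts and 6.71% with the quantile route. The median of the cholesterol synthesis enzymes stayed between 0.23, without SS tumor 1, and 0.49, without control tumor 2, where 13 of them were tested. That of the fatty acid enzymes was 0.18 without control tumor 1 and -0.50 without SS tumor 1. It was -0.07 with voom, -0.047 with the quantile route, -0.052 with the block and -0.26 with the adipocyte covariate. The median of all tested members was -0.039 without SS tumor 1, and that of the sensors was -0.026 without control tumor 3 and -0.014 with the adipocyte covariate.

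With the adipocyte covariate the log2 fold change turned sign for Mvk (0.15), Insig1 (-0.075), Scap (-0.014), Acaca (-0.091) and Fads2 (-0.001), with thinned libraries for Msmo1 (-0.022), with voom for Mvk (0.015) and Scd1 (0.64), and with the quantile route for Mvk (0.11) and Scd1 (0.38). With 1 tumor left out the log2 fold change ranged from -0.26 to 0.33 for Mvk, -0.26 to 0.34 for Msmo1, -0.049 to 0.32 for Insig1, -0.026 to 0.21 for Srebf2, -0.078 to 0.089 for Scap, -0.23 to 0.50 for Acaca, -1.11 to 0.17 for Acss2, -0.69 to 0.64 for Fasn, -1.14 to 2.01 for Scd1, -0.19 to 0.074 for Fads1, -0.14 to 0.19 for Fads2, -0.031 to 0.50 for Abca1 and -0.21 to 0.01 for Nr1h2. Without a turn of sign it ranged from 0.17 to 0.78 for Mvd, 0.20 to 0.52 for Fdps, 0.55 to 1.08 for Fdft1, 0.25 to 0.86 for Sqle, 0.20 to 0.54 for Lss, 0.29 to 0.70 for Cyp51, 0.14 to 0.62 for Nsdhl, -0.45 to -0.039 for Dhcr7, -0.44 to -0.20 for Insig2, 0.009 to 0.31 for Srebf1, -0.60 to -0.23 for Acly, 0.11 to 0.55 for Scd2, -0.44 to -0.003 for Elovl6 and 0.056 to 0.52 for Abcg1. Beyond fewer tumors, causes were not tested.

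Tumors with the same replicate number come from different mice, and the labels do not say whether they share more. Deviations of tumors with the same number correlated at 0.116, 0.021 and 0.077, and 3 of 6 tumors correlated best with their own number. With the replicate block, 643 genes had an unadjusted p under 0.05 in edgeR against 693 without it, 479 of them shared. Of the members only Hmgcs1 was among the 643, at 0.77 (SE 0.12, unadjusted p = 0.00106, adjusted p = 0.784 by Benjamini-Hochberg in edgeR). Standard errors fell for some members, as from 0.53 to 0.093 for Fasn, and rose for others, as from 0.44 to 0.49 for Fdft1. Mvk (0.013) and Scd1 (0.33) turned sign.

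A restriction to curated transcripts was not run, since all are curated. Enzymes under about 40 counts per tumor, such as Sqle, Fdft1, Elovl5 and Idi1, are limited by their low counts, whose source was not tested.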
